A study of Mus musculus with 9 samples.

Results

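The antioxidant and glutathione genes described here are 46 mouse genes, listed by symbol, that handle superoxide, peroxide, thioredoxin, glutathione and the transcription factor Nrf2. On the array, 41 of them were measured by at least 1 probe-set of their own, 85 probe-sets in all, among 18193 named genes. Prdx1 and Ftl1 were represented only by probe-sets that also match pseudogenes or other genes, 8 in all, and together with Prdx5, Prdx6 and G6pdx they were not analysed here. The study asked how loss of Tgif1, a transcriptional corepressor, and time in culture change gene expression in primary mouse embryo fibroblasts (MEFs), cells with a limited life span in culture. Affymetrix MOE430_2.0 arrays were run on Tgif1 -/- MEFs at passage 3 (Tgif1 null P3), wild type MEFs at passage 3 (P3) and wild type MEFs at passage 5 (P5), with 3 arrays per group. All cultures came from embryos of day 13.5 on a mixed C57BL/6J x 129Sv/J background and were primary cells. Null cells were measured at passage 3 only, so the effect of passage within the null was not measured.

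Nrf2, encoded by Nfe2l2, is held in the cytoplasm and marked for degradation by Keap1. Oxidants and electrophiles modify Keap1, and Nrf2 then reaches the nucleus and raises genes for glutathione synthesis, quinone reduction, heme breakdown and conjugation through antioxidant response elements. Superoxide dismutases turn superoxide into hydrogen peroxide, which catalase, the glutathione peroxidases and the peroxiredoxins remove, while glutathione reductase and the thioredoxin reductases restore the reduced state with NADPH. Fibroblasts kept in air meet more oxygen than cells of the embryo do, which is why these genes are of interest in cultured MEFs.

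The promoters of 6 members are shown for reference, and a link between their letters and the signals below was not tested. Nfe2l2, Gss and Gstm2 rose with passage, Gclm is the classical Nrf2 target beside Gss in glutathione synthesis, and Mt1 and Mt2 are the metallothionein pair. Each sequence is the 250 bases before the annotated start, 5′ to 3′, from RefSeq on GRCm38.p6, with Nfe2l2 at chr2:75704664-75704913 on the minus strand, Gclm at chr3:122245307-122245556 on the plus strand, Gss at chr2:155592811-155593060 on the minus strand, Gstm2 at chr3:107986421-107986670 on the minus strand, Mt1 at chr8:94178839-94179088 on the plus strand and Mt2 at chr8:94172368-94172617 on the plus strand. Capitals mark the letters of the antioxidant response element core in the first 4 and of the metal response element core in the metallothioneins.
Nfe2l2: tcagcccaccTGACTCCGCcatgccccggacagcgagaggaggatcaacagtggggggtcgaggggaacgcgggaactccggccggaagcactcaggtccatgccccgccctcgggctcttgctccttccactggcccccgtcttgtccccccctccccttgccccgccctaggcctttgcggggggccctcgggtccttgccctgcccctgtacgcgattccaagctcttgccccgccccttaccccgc
Gclm: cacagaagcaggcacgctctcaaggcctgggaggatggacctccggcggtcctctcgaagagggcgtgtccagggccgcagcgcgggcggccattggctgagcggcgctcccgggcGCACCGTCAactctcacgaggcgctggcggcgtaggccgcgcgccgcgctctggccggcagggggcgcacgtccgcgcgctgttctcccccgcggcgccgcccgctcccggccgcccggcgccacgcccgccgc
Gss: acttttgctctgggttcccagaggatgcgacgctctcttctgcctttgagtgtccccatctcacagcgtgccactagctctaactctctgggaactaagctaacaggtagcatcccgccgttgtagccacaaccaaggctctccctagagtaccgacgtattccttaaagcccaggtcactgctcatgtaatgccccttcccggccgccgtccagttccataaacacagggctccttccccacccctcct
Gstm2: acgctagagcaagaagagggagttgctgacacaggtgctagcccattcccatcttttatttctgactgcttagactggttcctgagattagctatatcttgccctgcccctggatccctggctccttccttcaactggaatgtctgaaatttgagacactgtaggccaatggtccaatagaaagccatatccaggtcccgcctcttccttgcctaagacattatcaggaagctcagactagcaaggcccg
Mt1: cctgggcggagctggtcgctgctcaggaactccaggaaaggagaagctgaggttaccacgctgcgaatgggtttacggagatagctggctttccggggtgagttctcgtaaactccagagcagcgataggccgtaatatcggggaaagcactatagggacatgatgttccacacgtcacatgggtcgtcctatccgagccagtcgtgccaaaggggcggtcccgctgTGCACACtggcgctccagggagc
Mt2: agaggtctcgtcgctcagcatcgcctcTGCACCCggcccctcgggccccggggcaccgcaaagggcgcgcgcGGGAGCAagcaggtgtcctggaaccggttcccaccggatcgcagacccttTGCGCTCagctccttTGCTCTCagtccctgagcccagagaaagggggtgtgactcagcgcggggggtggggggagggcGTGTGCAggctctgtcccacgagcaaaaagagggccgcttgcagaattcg
The searched letters were TGACNNNGC for the antioxidant response element core, TGCNCNC for the metal response element core and TGACTCA for the AP-1 site, on both strands, and the first can overlap the last. Of 32851 promoters in the table, 10.2% held the antioxidant letters, 44.4% the metal letters and 4.46% the AP-1 letters. Promoters were listed for 40 of the 46 members, 51 in all, of which 17.6%, 45.1% and 9.8% held them. Gclc, Gsr, Gsta4, Hmox1, Prdx6 and Sod3 did not match. The antioxidant letters lay in the Nfe2l2 and Gclm windows, while the Gss and Gstm2 windows held none of the 3 sets of letters. The Mt2 window held 5 matches to the metal letters, and 1 match to the antioxidant letters that overlaps an AP-1 match, whereas the Mt1 window held 1 match to the metal letters.

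Values are log2 signals, 1 per probe-set and array, and a gene is represented by its probe-set with the highest mean signal. Differences were tested with limma on all 9 arrays, adjusted by the Benjamini-Hochberg method over 45037 probe-sets, and a gene is said to have risen or fallen only at an adjusted p under 0.05. Array medians lay between 2.48 and 2.50, and replicate arrays correlated at 0.996 to 0.999. All arrays share a lowest value of 2.23, and a difference from a group that lies near it is bounded from below only. Tgif1 itself had signals of 2.48, 3.21 and 2.50 on the null arrays and of 9.72 to 10.18 on the 6 wild type arrays. All 9 fibroblast markers had a mean above 4, although Lum was at 3.00 to 3.14 in the null, 3.03 to 4.43 in P3 and 5.26 to 5.75 in P5. Of the 9, Dcn fell in the null by 0.73 (adjusted p = 0.0317), Lum and Col1a2 rose between P3 and P5, by 1.65 (adjusted p = 0.0369) and 0.26 (adjusted p = 0.046), and 4 were lower in the null than in P5. Alb and Ttr of liver and Hba-a1 of red cells were at or near the lowest value, as were Pecam1, Cdh5, Tek and Tie1 of 6 endothelial markers, while Emcn was at 4.94 to 6.11 in the null and 3.66 to 4.12 in P5 (log2 difference 1.61, adjusted p = 0.0254). Other lists moved with the groups. Of 12 macrophage markers 1 rose in the null, Ctss, by 1.89 (adjusted p = 0.00976), and the summed level of the list was 9.73 to 10.4 in the null, 9.05 to 9.17 in P3 and 8.59 to 8.83 in P5. The null and P3 arrays did not overlap in 10 of the 12 (83.3%, beside 16% of all genes), and the median difference was 1.02. Directly compared, 8 of the 12 were higher in the null than in P5 (66.7% called, beside 11.4% of all genes). Of 8 muscle markers 5 rose in the null, although Myod1 lay near the lowest value, and with passage Acta1 rose 3.04-fold (adjusted p = 0.000388) while on the log2 scale Actc1 and Myh3 fell by 3.93 (adjusted p = 0.000569) and 2.58 (adjusted p = 0.000975). Of 3 adipocyte markers, Fabp4 rose between P3 and P5 by 1.07 (adjusted p = 0.0258), Lpl fell by 0.93 (adjusted p = 0.00357) and Adipoq was at or near the lowest value. Of 5 epithelial markers Krt18 alone passed between P5 and P3, where it fell by 2.66 (adjusted p = 0.00041). Of 11 proliferation genes 11 fell between P3 and P5, with a median difference of -0.82, and 3 fell in the null. Xist was at 10.85 to 11.17 on the null arrays, 10.51 to 10.90 on the P3 arrays and 9.50 to 10.38 on the P5 arrays. The Y-linked Eif2s3y was at 7.86 to 8.81, 8.29 to 9.12 and 9.31 to 9.38. Of 4 sex genes, 2 passed between null and P5 (50%, beside 19.7% of expressed genes) and 0 in either comparison with P3. Xist was 1.15 higher in the null than in P5 (adjusted p = 0.0469), and the Y-linked Kdm5d was 0.53 lower (adjusted p = 0.047). Because the arrays measure whole cultures, fewer cells of a type and less RNA per cell cannot be told apart, and the part of these shifts in the results below was not tested.

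Most antioxidant and glutathione genes passed no test, and more of them passed between the wild type passages than between genotypes. Between P3 and P5, 5 of the 41 members rose (Nfe2l2, Hmox1, Gss, Gpx8 and Gstm2), 2 fell (Gsr and Pgd) and 34 did not pass, that is 17.1% called against 13.2% of all genes. Among genes with a mean signal above 4, to which 39 of the members belong, 17.9% of the members and 23.3% of all genes were called, so the share of members was no higher than that of expressed genes. Of the 39, 5 rose (10.5% of expressed genes did) and 2 fell (12.8% did). The median log2 difference of the 41 was 0.02, against -0.03 over the expressed genes. In the Tgif1 null relative to P3, 1 member rose (Gss), 0 fell and 40 did not pass, 2.44% against 2.58% of all genes, and 4.52% of expressed genes, of which 2.61% rose and 1.91% fell. The 3 arrays of the null lay apart from the 3 of P3, with no overlap, in 38.5% of the expressed members and 27.6% of expressed genes, and those of P5 from P3 in 46.2% and 53.6%. The median difference of the 41 members in the null relative to P3 was -0.03, with a range from -0.75 to 0.96. Without adjustment, 41% of the expressed members and 26.2% of expressed genes had a p under 0.05 in the null, and 38.5% and 46% in P5. Both comparisons use the same 3 P3 arrays, and so the sizes of a member's differences in them are not independent.

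**Figure D1:**
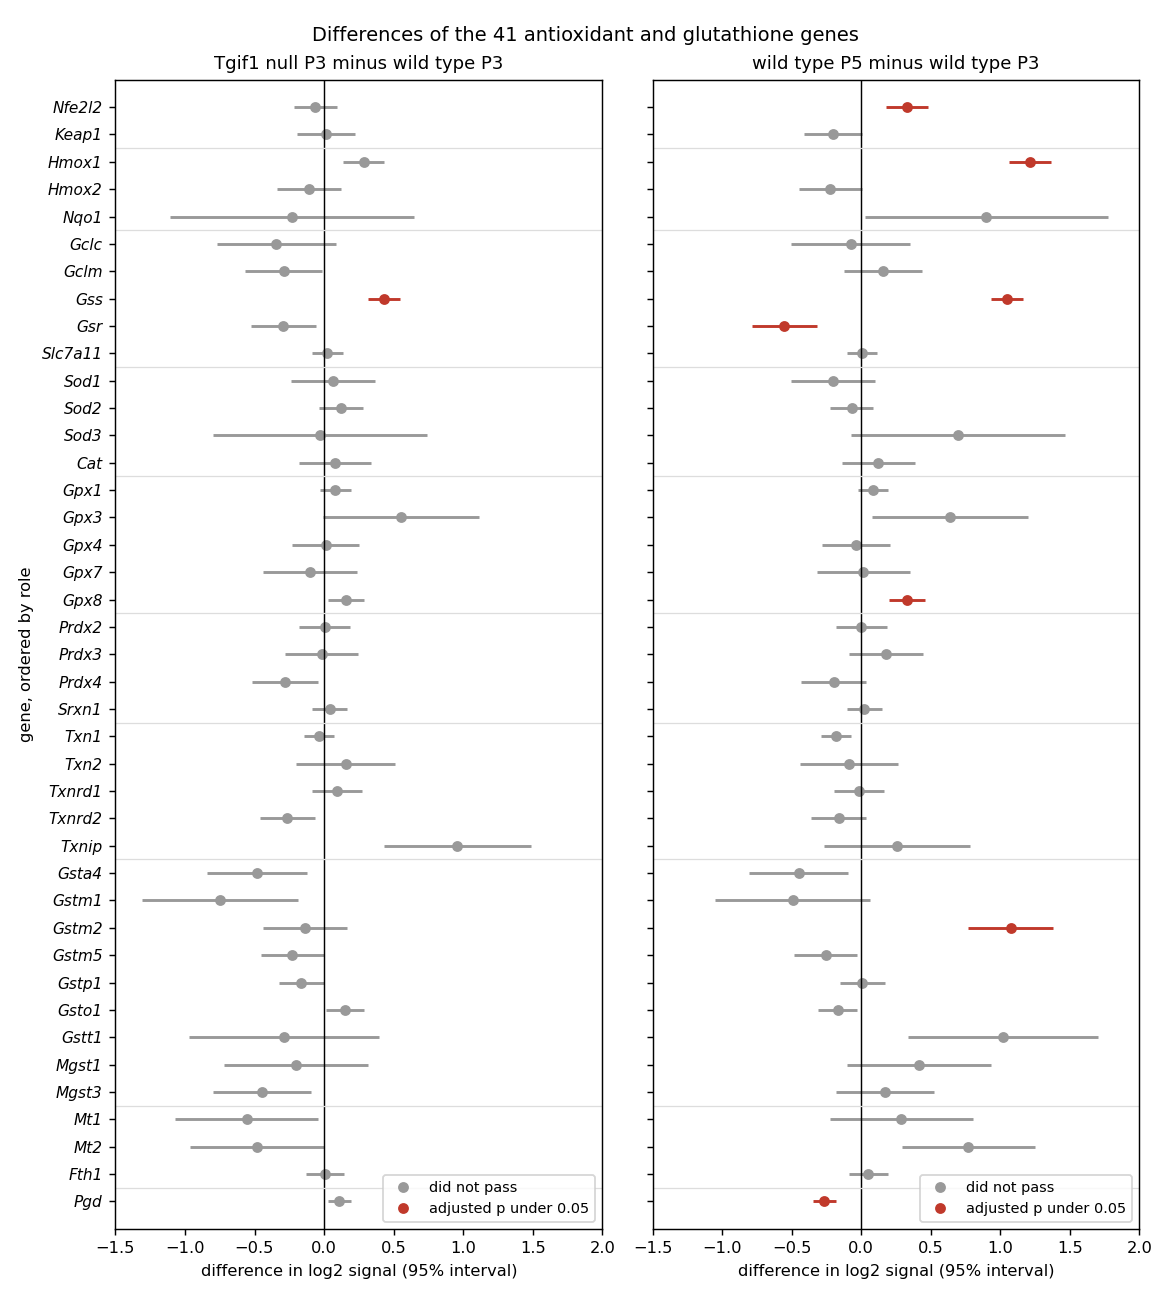
Difference in log2 signal of each of the 41 genes, ordered by role, between Tgif1 null P3 and wild type P3 (left) and between wild type P5 and P3 (right), with the 95% interval of limma's fit and 3 arrays per group. Red marks an adjusted p under 0.05: 1 gene on the left, Gss, and 7 on the right, with Hmox1, Gstm2 and Gss between 1.05 and 1.22.

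Nfe2l2, the gene of Nrf2, had log2 signals of 10.22, 10.30 and 10.12 in P3 and of 10.53, 10.59 and 10.51 in P5, and 10.07, 10.12 and 10.25 in the null. All P5 arrays lay above all others, while the null and P3 arrays overlapped. Nfe2l2 rose by 0.33 between P3 and P5 (SE 0.06, adjusted p = 0.0279), a call lost in 10 of 16 alternative settings, with adjusted p-values of up to 0.166. Keap1, which holds Nrf2 back, differed by -0.20 in P5 (95% interval -0.41 to 0.01, adjusted p = 0.286) and by 0.02 in the null (-0.19 to 0.22). The transcripts do not report the amount or activity of the Nrf2 protein, which is set mainly by degradation.

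Hmox1, the inducible heme oxygenase that breaks heme down to biliverdin, iron and carbon monoxide, had the largest difference of the 41 genes between passages. Its log2 signals were 9.55, 9.70 and 9.74 in P3, 10.91, 10.83 and 10.91 in P5, and 9.92, 10.04 and 9.89 in the null. The 3 groups did not overlap, with the null between the wild type passages and nearer to P3. Hmox1 rose by 1.22 between P3 and P5 (SE 0.06, adjusted p = 0.000388), which is 2.32-fold. In the null it was 0.28 above P3 (95% interval 0.13 to 0.43), which did not pass the test (adjusted p = 0.106). Directly compared, Hmox1 was 0.93 lower in the null than in P5 (log2 difference -0.93, SE 0.06, adjusted p = 0.000892). Hmox2, the constitutive heme oxygenase, differed by -0.22 in P5 (-0.45 to 0.00) and by -0.11 in the null (-0.34 to 0.12). Nqo1, the quinone reductase that serves as a standard readout of Nrf2, had signals of 6.73, 7.17 and 6.90 in P3, 8.24, 8.03 and 7.23 in P5, and 6.08, 7.05 and 6.98 in the null. P5 lay above P3 on every array, but P5 replicate 3 was only just above the highest P3 array, and the difference of 0.90 did not pass (0.03 to 1.77, adjusted p = 0.25).

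**Figure D2:**
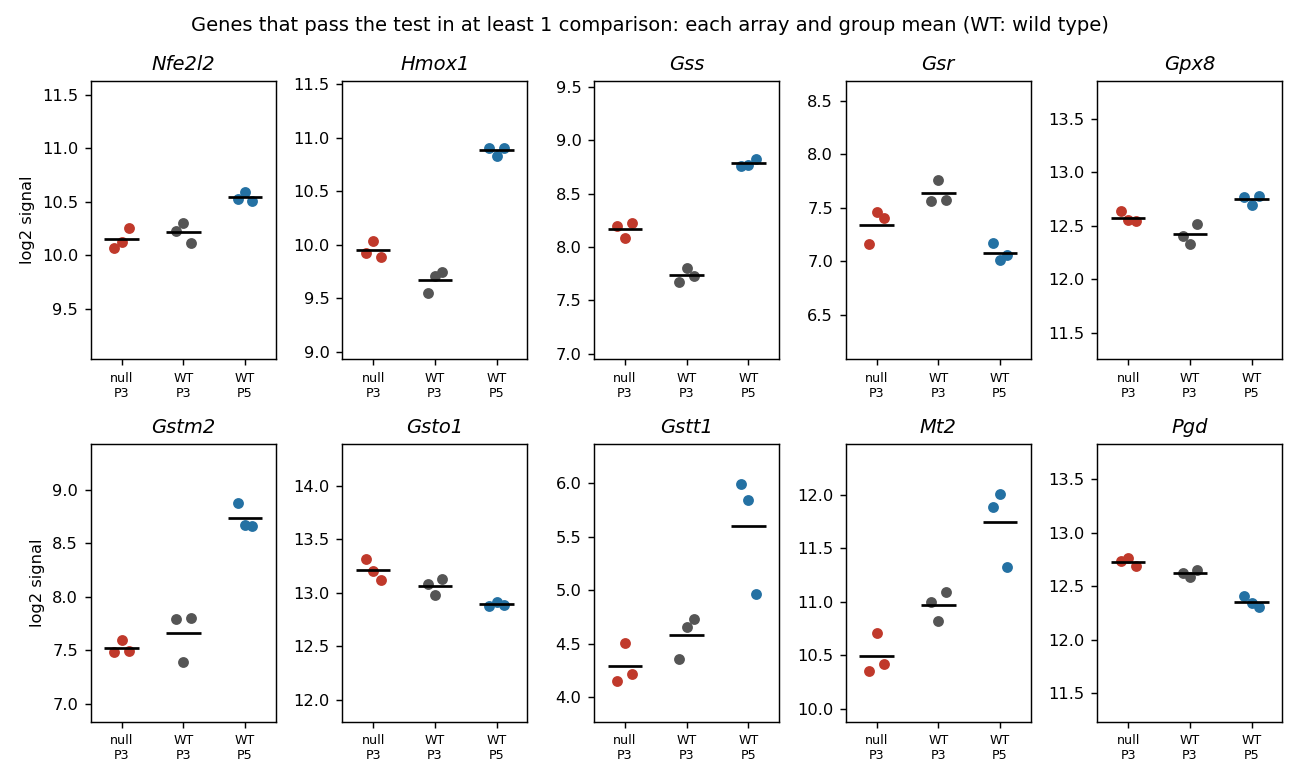
Log2 signal of the 10 genes that pass the adjusted test in at least 1 of the 3 comparisons, with a point for each of 3 arrays per group and a line at the group mean; every panel spans the same range of log2 units. Hmox1, Gss and Gstm2 are highest on all 3 P5 arrays, and in Gstt1 and Mt2 the P5 array of replicate 3 lies below the other P5 arrays.

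In glutathione synthesis, the gene of the last step rose in both comparisons with P3, whereas neither subunit of the first enzyme passed. Gss, glutathione synthetase, which joins glycine to gamma-glutamylcysteine, had signals of 7.68, 7.80 and 7.73 in P3, 8.20, 8.08 and 8.22 in the null, and 8.76, 8.77 and 8.83 in P5. The groups did not overlap in any pairing. Gss was the only member to rise in the null, by 0.43 (SE 0.05, adjusted p = 0.0151, 1.35-fold), and it rose by 1.05 between P3 and P5 (SE 0.05, adjusted p = 0.000284, 2.07-fold). The null was lower than P5 by 0.62 (log2 difference -0.62, adjusted p = 0.00148). A second probe-set of Gss rose by 0.83 with passage (adjusted p = 0.00196) but at 0.26 did not pass in the null (adjusted p = 0.234). The call in the null was also lost in 5 of 16 alternative settings, among them without P3 replicate 1 and without P3 replicate 3. The difference of 0.43 also lies below the 0.5 asked for by the study's methods, a threshold that the 16 leave out. Gclc, the catalytic subunit of the rate-limiting glutamate-cysteine ligase, had signals of 7.90, 8.22 and 7.93 in P3, 7.93, 7.99 and 7.90 in P5, and 7.28, 7.92 and 7.83 in the null. On this probe-set the groups overlapped in every comparison, with differences of -0.08 in P5 (-0.51 to 0.35) and -0.34 in the null (-0.77 to 0.09). On the second probe-set of Gclc, every P3 array lay above every array of the other groups. It differed by -0.34 in P5 (-0.56 to -0.13, adjusted p = 0.0739) and by -0.36 in the null (-0.58 to -0.15, adjusted p = 0.15), and did not pass. Gclm, the modifier subunit, differed by 0.16 in P5 (-0.12 to 0.43) and by -0.29 in the null (-0.57 to -0.01, adjusted p = 0.462). The dimmer probe-set of Gclm differed by 0.69 in P5 (-0.02 to 1.39, adjusted p = 0.279), with no overlap of the P5 and P3 arrays. In the null it differed by -0.15 (-0.85 to 0.56). Slc7a11, the cystine carrier that feeds glutathione synthesis, was at 2.59 to 2.77 on all arrays, too near the lowest value to show a decrease.

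Of the members that recycle glutathione or supply NADPH, Gsr and Pgd fell with passage and neither passed in the null. Gsr, glutathione reductase, had signals of 7.57, 7.76 and 7.57 in P3, 7.18, 7.01 and 7.06 in P5, and 7.16, 7.46 and 7.41 in the null. Every P3 array lay above every array of the other groups. Gsr fell by 0.55 between P3 and P5 (SE 0.10, adjusted p = 0.0202) and differed by -0.29 in the null (-0.53 to -0.06, adjusted p = 0.324). The dimmer probe-set of Gsr differed by 0.18 with passage, in the other direction, and did not pass (adjusted p = 0.815). Pgd, phosphogluconate dehydrogenase, which makes NADPH in the pentose phosphate pathway, had signals of 12.63, 12.58 and 12.65 in P3, 12.41, 12.34 and 12.30 in P5, and 12.74, 12.76 and 12.69 in the null. The groups were narrow and did not overlap. Pgd fell by 0.27 between P3 and P5 (SE 0.03, adjusted p = 0.00644), and 3 of its 4 probe-sets fell. It was 0.38 higher in the null than in P5 (adjusted p = 0.00225).

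Among the enzymes that remove superoxide and peroxide, 1 of 13 members passed between P3 and P5 and 0 between null and P3 by limma, where 2 had an unadjusted p under 0.05. Of expressed genes, 23.3% passed between P3 and P5 and 4.52% between null and P3, where 26.2% had an unadjusted p under 0.05. Sod1, the cytosolic superoxide dismutase, differed by -0.21 in P5 (-0.51 to 0.10) and by 0.06 in the null (-0.24 to 0.37), and the mitochondrial Sod2 by -0.07 (-0.23 to 0.09) and 0.12 (-0.03 to 0.28). Cat, catalase, differed by 0.12 in P5 (-0.14 to 0.38), while its dimmer probe-set rose by 0.34 (adjusted p = 0.0295). Gpx1, the main cytosolic glutathione peroxidase, differed by 0.08 in both comparisons, each with an interval from -0.03 to 0.19. Gpx8, a glutathione peroxidase of the endoplasmic reticulum, was the member that passed. Its signals were 12.41, 12.33 and 12.52 in P3, 12.78, 12.69 and 12.78 in P5, and 12.64, 12.55 and 12.54 in the null. It rose by 0.33 with passage (SE 0.05, adjusted p = 0.0156), with the null between the passages and overlapping neither. Gpx3, the secreted glutathione peroxidase, had signals of 7.66, 7.23 and 7.61 in P3, 8.43, 8.04 and 7.70 in the null and 7.89, 8.11 and 8.40 in P5. The P3 arrays lay below all others, but differences of 0.56 in the null (just below 0 to 1.12, adjusted p = 0.496) and 0.64 in P5 (0.08 to 1.20, adjusted p = 0.198) did not pass. On their brightest probe-sets, the 4 members of the peroxiredoxin and sulfiredoxin group had differences of -0.20 to 0.18 in P5 and of -0.28 to 0.04 in the null. The dimmer probe-set of Prdx2 differed by 0.33 in P5.

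In the thioredoxin system, Txnrd1, the cytosolic thioredoxin reductase and an Nrf2 target, differed by -0.01 in P5 (-0.19 to 0.16) and 0.10 in the null (-0.08 to 0.27). Txnip, the inhibitor of thioredoxin that also curbs glucose uptake, had the largest difference of the 41 genes in the null. Its signals were 8.38, 7.51 and 7.82 in the null, 7.02, 6.89 and 6.91 in P3, and 7.13, 7.07 and 7.39 in P5. All null arrays lay above all wild type arrays, with null replicate 1 highest. The difference of 0.96 (0.43 to 1.49) did not pass (adjusted p = 0.119), although it did when probe-sets of low signal were left out (adjusted p = 0.022).

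Of 9 glutathione transferases, which attach glutathione to electrophiles, 1 rose between P3 and P5, Gstm2, and 0 passed in the null. That is 11.1% and 0% called, beside 23.3% and 4.52% of expressed genes. Gstm2 had signals of 7.79, 7.39 and 7.80 in P3, 8.87, 8.67 and 8.66 in P5, and 7.48, 7.60 and 7.50 in the null. The P5 arrays stood clear of the rest, and the null and P3 arrays overlapped. Gstm2 rose by 1.07 between P3 and P5 (SE 0.13, adjusted p = 0.00491, 2.1-fold), and differed by -0.14 in the null (-0.44 to 0.17). Gstm1, of the same mu class, had signals of 7.63, 7.30 and 7.98 in P3, 7.23, 7.20 and 6.99 in P5, and 6.51, 7.20 and 6.94 in the null. Every P3 array lay above every other array, yet neither the difference of -0.75 in the null (-1.31 to -0.19, adjusted p = 0.271) nor that of -0.49 in P5 (-1.05 to 0.07, adjusted p = 0.343) passed. The mu class genes are close in sequence, so their probe-sets may share signal. Gstt1, of the theta class, had signals of 4.35, 4.65 and 4.73 in P3, 5.99, 5.84 and 4.96 in P5, and 4.15, 4.51 and 4.22 in the null. Its difference of 1.02 with passage did not pass (0.33 to 1.70, adjusted p = 0.0915), and P5 replicate 3 lay far below the other P5 arrays. None of the 9 transferases passed in the null by limma (0 of 9), with 5 at an unadjusted p under 0.05, a level that 26.2% of expressed genes reached. Their differences in the null had a median of -0.23.

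Mt1 and Mt2, the metallothioneins that bind zinc and copper and lie side by side, had the same order of groups. Mt2 had signals of 10.35, 10.70 and 10.41 in the null, 11.00, 10.82 and 11.10 in P3, and 11.89, 12.01 and 11.33 in P5, so that no groups overlapped. Mt1 had 11.14, 11.30 and 11.15 in the null, 11.81, 11.50 and 11.95 in P3, and 12.22, 12.32 and 11.60 in P5. In both genes P5 replicate 3 was the lowest P5 array, and for Mt1 it lay within the P3 range. These are the values of the brightest probe-set of Mt1, which differed by 0.29 with passage, while its dimmer probe-set differed by 0.87. Mt2 was lower in the null than in P5 by 1.25 (log2 difference -1.25, SE 0.20, adjusted p = 0.0158), a call lost in 6 of 16 settings, with adjusted p-values of up to 0.0694. Relative to P3, Mt2 differed by -0.48 in the null (-0.96 to just below 0, adjusted p = 0.484) and by 0.77 in P5 (0.29 to 1.25, adjusted p = 0.0711). Without P5 replicate 3, the difference of Mt2 with passage was 0.98 (adjusted p = 0.0189) and that of Gstt1 was 1.34 (adjusted p = 0.0124). That array was the lowest P5 array in both genes, so leaving it out must raise the difference and is no support for a change. Leaving out any other single array did not make either pass. Fth1, the ferritin heavy chain, which stores iron, differed by 0.05 in P5 (-0.09 to 0.19) and 0.01 in the null (-0.13 to 0.15).

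**Figure D3:**
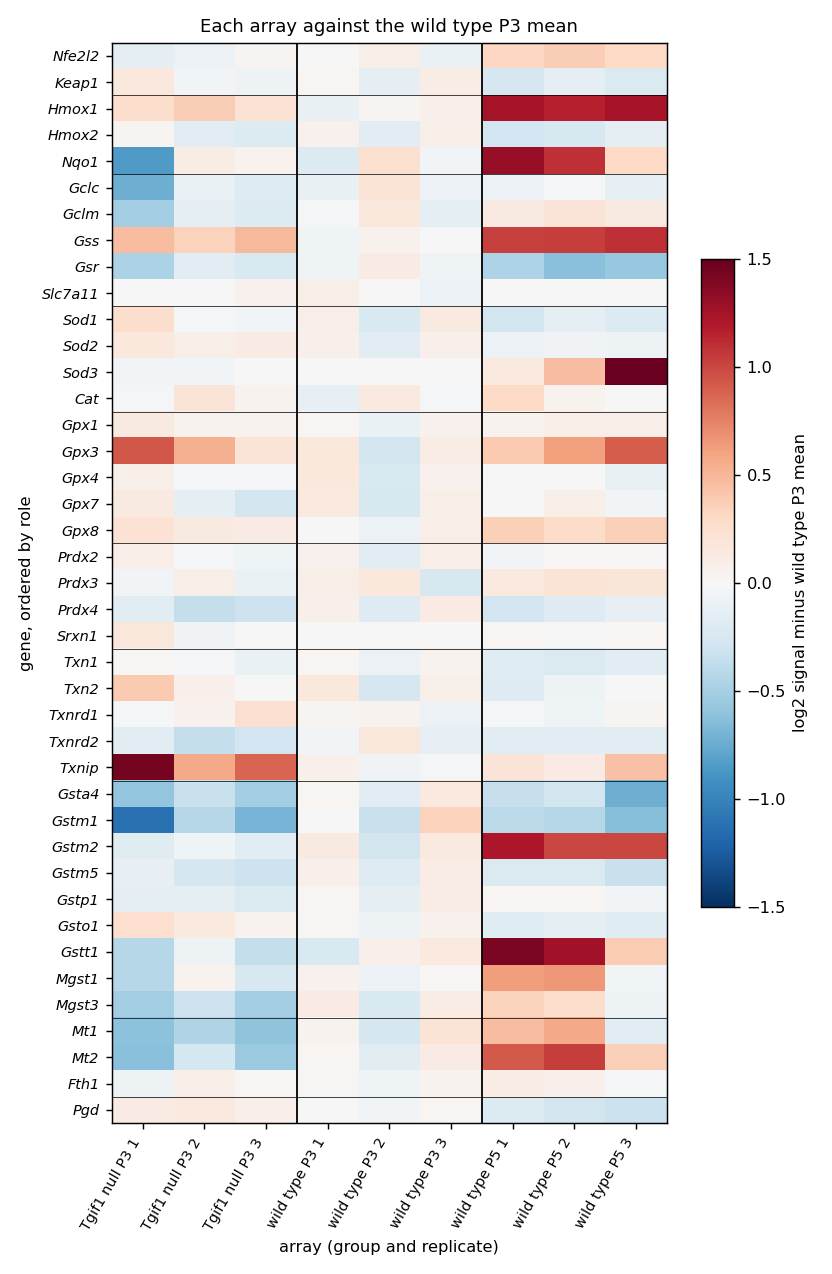
Log2 signal of each array minus the wild type P3 mean for the 41 genes, ordered by role, with red above and blue below and a scale that ends at -1.5 and 1.5; columns are the 9 arrays by group and replicate. Hmox1, Gss and Gstm2 are red on all 3 P5 arrays, while Nqo1, Gstt1, Mgst1 and Mt2 are red on P5 replicates 1 and 2 and paler on replicate 3.

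The Tgif1 null and wild type P5 cells were also compared directly, which is the test of whether the 2 differences from P3 are unequal. Of the 41 members, 2 were higher in the null (Gsto1 and Pgd), 6 lower (Nfe2l2, Hmox1, Gss, Gstm2, Gstt1 and Mt2) and 33 did not pass, 19.5% against 11.4% of all genes and 19.7% of expressed genes, of which 10.7% were higher and 8.91% lower. The arrays of the 2 groups did not overlap in 51.3% of the expressed members and 51.7% of expressed genes. Gsto1, an omega class transferase that also reduces dehydroascorbate, was 0.32 higher in the null (adjusted p = 0.024). Gstt1 was 1.31 lower (log2 difference -1.31, SE 0.28, adjusted p = 0.0458), a call lost in 12 of 16 alternative settings, and Nfe2l2 lost it in 7, with adjusted p-values of up to 0.119. Hmox1, Gss, Gstm2 and Pgd passed this comparison in all 16 settings, with adjusted p-values of up to 0.0475. The 16 leave out the threshold of the study's methods, which asks for a log2 difference of at least 0.5. The difference of 0.38 in Pgd falls short of it. For Hmox1, Gss and Gpx8 the null mean lay between the P3 and P5 means, and for Gstm2, Mt1, Mt2, Gstt1 and Nqo1 it lay below both.

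Different probe-sets of a gene can be set side by side for 20 members that have more than 1 with a mean signal above 4. In 5 of these the differences with passage had opposite signs, in Gsr, Txnrd1, Txnrd2, Gsto1 and Fth1, and in the other 15 they had the same sign. Of these genes, Gss and Pgd are the ones for which more than 1 probe-set passed.

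**Figure D4:**
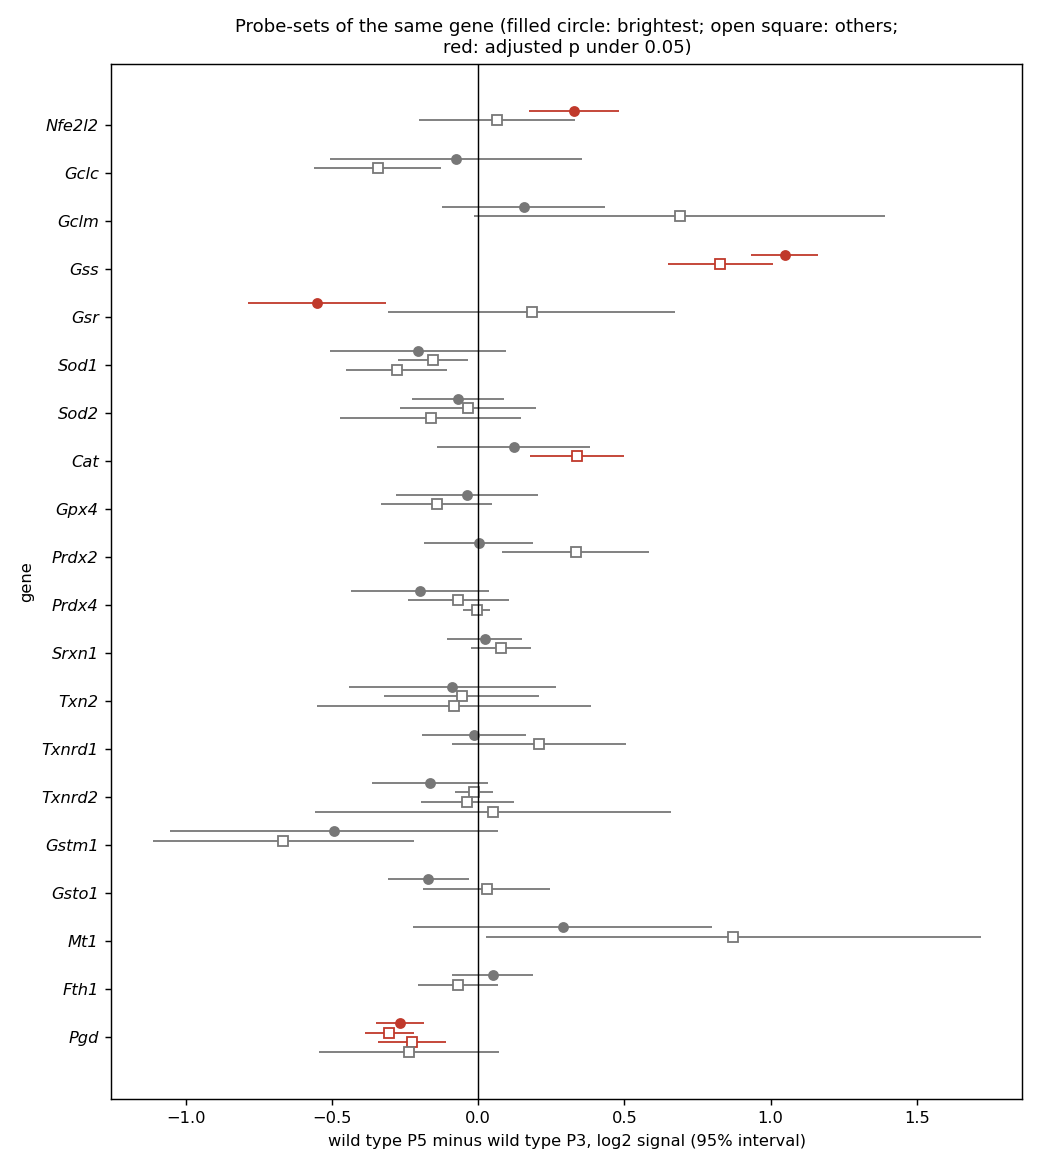
Difference in log2 signal between wild type P5 and P3 (95% interval, 3 arrays per group) for each probe-set with a mean above 4, in the 20 genes that have more than 1; filled circles are the brightest probe-set and open squares the others, with red for an adjusted p under 0.05. Both probe-sets of Gss lie between 0.83 and 1.05, whereas those of Gsr lie on both sides of 0.

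Other genes of the same pathways were taken from a list of 91, of which 85 were measured. In the null relative to P3, 2 rose, 2 fell and 81 did not pass, 4.71% against 2.58% of all genes. Of the 66 with a mean signal above 4, 6.06% passed, against 4.52% of expressed genes. Ggct, which releases oxoproline from gamma-glutamyl peptides in glutathione breakdown, had signals of 8.59, 8.52 and 8.61 in the null and 7.63, 7.45 and 7.85 in P3, and rose by 0.93 (adjusted p = 0.0202). Me1, the cytosolic malic enzyme, another source of NADPH, rose by 0.71 (adjusted p = 0.0213), and rose by 0.38 between P3 and P5 as well (adjusted p = 0.0494). Glo1, the glyoxalase that uses glutathione to clear methylglyoxal, was at 11.27, 11.24 and 11.15 in the null and at 11.86, 11.71 and 11.81 in P3. It fell by 0.57 (adjusted p = 0.00976), while Tkt, transketolase, fell by 0.27 (adjusted p = 0.0469). The null and P3 arrays did not overlap in any of these 4 genes. They were chosen for the smallest p, so this adds no support, and 27.6% of expressed genes did not overlap either.

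Between P3 and P5, 13 of the 85 rose, 6 fell and 66 did not pass, 22.4% against 13.2% of all genes. Of the 66 with a mean signal above 4, 25.8% passed, against 23.3% of expressed genes. Gstt3, a theta class transferase like Gstt1, had signals of at most 4.27 in P3, of 5.91, 6.02 and 5.74 in P5 and of 4.24 to 4.29 in the null, and rose by 1.73 (adjusted p = 0.00041). Ephx1, the microsomal epoxide hydrolase, rose by 1.17 (adjusted p = 0.000975) from 10.79, 10.83 and 10.78 to 11.95, 12.11 and 11.86. The paraoxonase Pon2 rose by 0.95 (adjusted p = 0.00229) and the sestrin Sesn3 by 0.86 (adjusted p = 0.00197). Of 13 further enzymes listed as Nrf2 targets, 11 with a mean signal above 4, 3 rose and 0 fell (23.1% called, beside 13.2% of all genes). Of 15 redox repair genes, all with a mean signal above 4, 5 rose and 1 fell (40%, beside 23.3% of expressed genes). Among the Nrf2 targets, Cbr3, a carbonyl reductase, rose by 1.49 (adjusted p = 0.00346), and it is named after its value was seen.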

How the data were processed

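Tgif1 null cells at P3 and wild type cells at both passages were measured in biological triplicate on Affymetrix MOE430_2.0 arrays, 9 in all. The authors deposited log2 values, 1 per probe-set and array, normalized with GCRMA. Limma stands beside it in the submitters' processing notes, with versions not given in the sources used here. GCRMA subtracts background by probe sequence and brings arrays to 1 distribution, so weak genes collapse onto a common lowest value. No further normalization was applied to the deposited log2 values, and 64 control probe-sets were left out.

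Probe-sets were named by gene number through RefSeq, 34945 with 1 gene, 932 with several and 9160 not named here. A gene is represented by its brightest probe-set. With limma 3.58.1 in R 4.3.3 (lmFit, eBayes), a model of 3 group means was fitted to the 9 arrays, adjusted by Benjamini-Hochberg over 45037 probe-sets at an adjusted p under 0.05. The fit had 6 residual degrees of freedom and a prior worth 0.345. The fit was tested on simulated data, with 100 changed probe-sets for each size of difference. With the differences placed in the null, it found 30 of 100 true log2 differences of 0.5 and 55 of 100 of 1. With the differences placed in P5, it found 19 and 54 of 100. Of 44837 unchanged probe-sets, it called 7 and 10. Both runs drew on the same means and spreads, so they do not compare genotype with passage. They changed fewer probe-sets than the genes that passed in the data, 469 for genotype and 2409 for passage. With fewer changes the adjusted threshold is stricter, so these shares do not give the power in the data. Many true differences were missed in the simulation, and a gene that did not pass is not shown to be unchanged. The number of arrays limits the precision, and an exact permutation test of 3 against 3 arrays cannot go below 0.1. The p-values of limma set a group difference against the spread between replicate cultures. The labels do not say whether these came from different embryos. Promoters were searched with Python 3.11.15, and figures drawn with matplotlib 3.10.9.

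The genes and lists were chosen with earlier results of these data known. Genes were named if they passed in either comparison with P3, if they define a role (such as Gclc, Sod1 or Mt1), or if they were among the 4 largest differences of a comparison, and of other lists up to 4 with the smallest p. Cbr3, Gsto1 and the remaining members mentioned were chosen after their values were seen. The alternatives were the methods' threshold (a p under 0.0001, taken here from limma's F test over the 3 groups, and a log2 difference of at least 0.5), an intensity-dependent robust prior, a filter on a log2 signal above 4 on at least 3 arrays, quantile normalization, median centring, the replicate number as a block, the mean of a gene's probe-sets, 2 groups fitted alone, and each array left out in turn. The same threshold with the p of each comparison itself was added after seeing the data.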

Additional observations from a re-analysis of the deposited data

How the results depend on the processing

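Of the 41 members, 1 passed between null and P3, 7 between P5 and P3 and 8 between null and P5. At the threshold of the methods, with its p taken from the F test over the 3 groups, these counts were 0, 3 and 3, and with the p of each comparison, an alternative chosen after seeing the data, 0, 2 and 3. With the intensity-dependent robust prior they were 0, 3 and 5, and with the filter on low signal 2, 11 and 14. The null to P3 count was 2 with the mean of all probe-sets and 0 with 2 groups fitted alone. With each array left out in turn the counts ran from 0 to 1, from 4 to 10 and from 4 to 10. The first was 0 without wild type P3 replicate 1 and without P3 replicate 3, and the second 4 without P3 replicate 1. The third was 4 without P5 replicate 1 and without P5 replicate 2, and 5 without null replicate 1 and without null replicate 2. With the replicate number as a block, 0, 5 and 4 members passed. The labels do not say whether the numbers pair the samples, and the values did not show it. The deviations of same-numbered arrays correlated from -0.485 to 0.395, and 2 of 9 arrays correlated best with their own number. With 3 arrays per group this cannot exclude pairing. No difference changed sign past the threshold in any setting, and of 1053 values of single members, 984 stayed on the same side of it, 53 lost the call and 16 gained it. Hmox1, Gss and Gstm2 passed between P5 and P3 in all 16 settings, where the highest adjusted p was 0.00783, 0.00874 and 0.0318. Pgd was lost in 1, Gpx8 in 5, Gsr in 7 and Nfe2l2 in 10, for which the cause was not tested. These 16 leave out the threshold of the methods. With the p of the comparison itself, Hmox1 and Gss passed that threshold and Gstm2 did not (limma, unadjusted p = 0.000105). Signal over background limits what Slc7a11 and Sod3 can show, since both had a mean below 4.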

Other observations

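Of 7 further metal and iron genes, 1 rose and 2 fell between P3 and P5, 42.9% called beside 13.2% of all genes. Of the 7, 5 had a mean signal above 4, and 23.3% of such genes were called. The 3 are named after their values were seen. Slc30a1, which exports zinc from the cell, had log2 signals of 6.71, 6.71 and 6.87 in wild type P3 and 7.37, 7.27 and 7.36 in P5, and rose by 0.57 (limma, adjusted p = 0.00258). Tfrc, the transferrin receptor that brings iron in, had signals of 11.42, 11.62 and 11.40 in P3 and 11.13, 11.02 and 10.96 in P5, and fell by 0.45 (adjusted p = 0.0426). Slc40a1, the iron exporter, fell by 0.46 (adjusted p = 0.0364), although at 3.12 to 3.77 in wild type cells it lay close to the lowest value. The P5 arrays overlapped with the P3 arrays in none of these 3 genes. They were chosen because they passed, so this adds no support, and 53.6% of expressed genes did not overlap either.

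Enzymes that make oxidants did not pass in either comparison with P3, 0 of 6 by limma and 0 of 6 at an unadjusted p under 0.05, and 4 of the 6 had a mean log2 signal of no more than 4. Of all genes, 2.58% passed in the null and 13.2% in P5, and 15.2% and 26.5% had an unadjusted p under 0.05. With 6 genes, a count of 0 says little. Selenop, which carries selenium for the synthesis of selenoenzymes, had signals of 6.94, 6.48 and 6.70 in P3, 8.46, 8.35 and 7.73 in P5, and 6.20, 6.71 and 6.85 in the null. It rose by 1.48 between P3 and P5 (SE 0.26, adjusted p = 0.02), with P5 replicate 3 again the lowest P5 array, and was named after its value was seen.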
